A study of Mus musculus with 228 samples.

Results

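The immunoglobulin and contactin adhesion genes are 32 genes, of 22870 gene rows in the deposited count tables, that encode cell surface proteins of the immunoglobulin superfamily and their contactin-associated partners. They were taken by name, with earlier results of these data known. The list holds contactins (Cntn1 to Cntn6), contactin-associated proteins (Cntnap1, Cntnap2, Cntnap4, Cntnap5a), NCAM genes (Ncam1, Ncam2), the L1 family (L1cam, Chl1, Nrcam, Nfasc), Dscam, Dscaml1, Sdk1 and Sdk2, the IgLON genes (Lsamp, Ntm, Opcml, Negr1), Boc and Cdon, Jam2 and Jam3, and Alcam, Thy1, Icam5 and Sirpa. All 32 were found. They were followed in single hippocampal neurons, each sequenced by itself after it had been drawn into a patch pipette.

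Proteins of this superfamily sit on the surface of axons, dendrites and synapses and bind like or unlike partners on the neighbouring membrane. Contactins and IgLON proteins are held by a lipid anchor and signal through partners beside them, whereas L1 family proteins cross the membrane and tie to the spectrin skeleton through ankyrins. In the hippocampus such proteins are known for guiding mossy fibres and Schaffer collaterals, for the layer in which an axon stops, and for the shape of spines.

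The Ascl4 CA1 group held 45 cells and the EGFP CA1 group 46, both pyramidal cells of medial CA1 in the ventral hippocampus of Nex-Cre mice. The Ascl4 GC group held 51 cells and the EGFP GC group 47, both ventral granule cells (GC) of Calb1-Cre mice, and the effect of the Cre line cannot be told apart from that of the cell type. All mice were adults of 3 to 4 months, and slices were cut 1 month after adeno-associated virus (AAV) had been injected into the hippocampus. EGFP cells carried a Cre-dependent AAV-EGFP alone, and Ascl4 cells carried it together with AAV-Ascl4, which encodes a basic helix-loop-helix transcription factor. No group carried a second virus without Ascl4, so the factor and the second virus cannot be told apart. The labels name no animal. Each group therefore counted as 1 sample, its cells were not treated as replicates, and no test between groups was possible.

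Levels are the reads of a gene summed over the cells of a group and scaled to 1000000 reads (CPM). Deep cells weigh more in such sums, so the range over cells, the median cell or the share of cells stands beside those the results turn on. For levels of at least 100 CPM the exact Poisson 95% bounds lay within 1.3% of the level, and for levels of 10 to 100 CPM within 3.8%. These bounds cover the counting of reads that carry no molecular identifiers, not the spread between cells or mice. A log2 ratio was taken with 1 CPM added to each level, which understates the fold of low genes. A member was counted as higher or lower when its ratio was at least 1.5-fold and when, in at least 1 of the 2 groups, at least 25% of cells had a read and the level reached 10 CPM. Sample titles carry running numbers, for which the labels give no reason, and ratios were repeated in an earlier and a later run of them, as a description and not a test. Runs were set within each group. In Ascl4 CA1 the later run joins 2 separate stretches of numbers, with cells of EGFP CA1 between them. In every other group each run is 1 stretch. All granule cells have lower numbers than all CA1 cells, so cell type cannot be told apart from the order of numbers. For EGFP CA1 against EGFP GC cells, even the earlier CA1 run follows the later granule cell run. Ratios by run in that comparison therefore pair unmatched stretches and are no matched repeat. A ratio given without the highest cell compares the means over the other cells of each group.

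Totals per cell ran between 1077532 and 25442664 reads, with group medians of 3836149 to 4700602. Ascl4 itself was at 23.2 CPM or more in every Ascl4 CA1 cell, with a summed level of 9395 CPM against 32.6 CPM in EGFP CA1 cells. In Ascl4 GC cells it was at 182.9 CPM or more in every cell and 14111 CPM in sum, against 47.3 CPM in EGFP GC cells. The summed level of 9 CA1 pyramidal markers was 1936 CPM in Ascl4 CA1 and 2331 CPM in EGFP CA1 cells, against 51.7 CPM in Ascl4 GC and 68.1 CPM in EGFP GC cells. The 10 granule cell markers summed to 2557 CPM in Ascl4 GC and 4256 CPM in EGFP GC cells, against 1180 CPM in Ascl4 CA1 and 627 CPM in EGFP CA1 cells, where Calb1 held most of the reads. With Calb1 left out, granule cell markers were higher than CA1 markers in 3 Ascl4 CA1 cells, and CA1 markers higher than granule markers in 3 Ascl4 GC cells. In the EGFP groups no cell went against its label in this way. Transcripts of glia were present in all groups. The 14 microglia markers summed to 4490 CPM in Ascl4 CA1 cells, between 1.008 and 57221 CPM by cell, and to 2173 CPM in EGFP CA1 cells, between 2.46 and 24143 CPM by cell. In Ascl4 GC cells they summed to 1587 CPM, against 765 CPM in EGFP GC cells. The 15 oligodendrocyte markers summed to 910 CPM in Ascl4 CA1, 886 CPM in EGFP CA1, 7808 CPM in Ascl4 GC and 626 CPM in EGFP GC cells, with Mal and Ugt8a at 0 in EGFP GC, Opalin and Ugt8a at 0 in EGFP CA1 and Olig2 at 0 in Ascl4 CA1. The sum does not stand for most cells, since the median cell had 53.0 CPM of these markers in Ascl4 GC and 238 CPM in EGFP GC cells, and the highest 118896 CPM and 5322 CPM. The 11 astrocyte markers summed to 347 CPM in Ascl4 CA1, 798 CPM in EGFP CA1, 778 CPM in Ascl4 GC and 827 CPM in EGFP GC cells. The part of glial RNA in the values below was not tested, except where cells were left out.

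For 22 of the 32 members a promoter was listed by RefSeq on GRCm38.p6. The 250 bases before a RefSeq start of transcription are shown for 6 of them. The windows of Cntnap2, Opcml, L1cam and Alcam lie inside the span that GENCODE gives the gene, which begins further upstream. Cntnap2, Opcml and L1cam had more reads in CA1 than in granule cells, Ncam2 had fewer, Lsamp was higher in Ascl4 GC than in EGFP GC cells, and Alcam was lower in both Ascl4 groups. Ascl4 belongs to a family of factors that bind the E-box, so capitals mark each match to CANNTG, a pattern that reads the same on both strands.
Cntnap2, chr6:45059811-45060060, plus strand: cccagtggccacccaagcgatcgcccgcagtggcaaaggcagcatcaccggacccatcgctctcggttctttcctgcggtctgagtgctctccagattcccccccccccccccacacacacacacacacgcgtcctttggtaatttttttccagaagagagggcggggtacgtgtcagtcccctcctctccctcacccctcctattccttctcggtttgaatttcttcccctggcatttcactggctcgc
Opcml, chr9:27791049-27791298, plus strand: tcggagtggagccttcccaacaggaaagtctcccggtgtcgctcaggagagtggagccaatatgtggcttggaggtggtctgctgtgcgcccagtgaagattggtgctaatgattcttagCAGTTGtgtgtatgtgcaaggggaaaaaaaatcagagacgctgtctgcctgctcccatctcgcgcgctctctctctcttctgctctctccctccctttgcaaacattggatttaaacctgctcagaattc
L1cam, chrX:73880791-73881040, minus strand: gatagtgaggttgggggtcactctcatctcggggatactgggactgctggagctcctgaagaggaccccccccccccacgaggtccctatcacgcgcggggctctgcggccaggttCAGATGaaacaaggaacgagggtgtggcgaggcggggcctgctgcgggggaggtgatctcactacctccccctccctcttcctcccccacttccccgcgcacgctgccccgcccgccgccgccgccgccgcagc
Ncam2, chr16:81200447-81200696, plus strand: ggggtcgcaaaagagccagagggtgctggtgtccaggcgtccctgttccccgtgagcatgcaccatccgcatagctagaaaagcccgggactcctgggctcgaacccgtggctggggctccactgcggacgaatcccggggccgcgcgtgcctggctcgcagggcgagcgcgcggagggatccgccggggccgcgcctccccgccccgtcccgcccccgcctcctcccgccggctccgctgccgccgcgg
Lsamp, chr16:39984114-39984363, plus strand: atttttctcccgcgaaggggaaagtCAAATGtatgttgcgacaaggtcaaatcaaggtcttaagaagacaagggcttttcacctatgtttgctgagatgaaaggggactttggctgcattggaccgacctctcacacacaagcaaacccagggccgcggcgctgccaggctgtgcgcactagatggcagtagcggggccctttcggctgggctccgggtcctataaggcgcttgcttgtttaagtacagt
Alcam, chr16:52453082-52453331, minus strand: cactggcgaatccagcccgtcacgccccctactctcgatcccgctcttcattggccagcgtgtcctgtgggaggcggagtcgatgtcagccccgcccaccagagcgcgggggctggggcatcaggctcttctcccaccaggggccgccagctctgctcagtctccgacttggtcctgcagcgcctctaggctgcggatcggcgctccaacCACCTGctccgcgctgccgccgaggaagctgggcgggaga
Cntnap2, L1cam and Lsamp have a further listed promoter each. The motif stood in 18 of the 31 listed promoters of members (58.1%) and in 66.2% of 32851 mouse promoters of the same length. CAGCTG, the narrower form with GC at its centre and therefore also a match to CANNTG, stood in 2 of 31 (6.45%) against 13% of all promoters. The windows shown for Cntnap2 and Ncam2 hold no match, and the further promoter of Cntnap2 holds 1 (CACCTG). A match is a description of letters and no site of binding.

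Per kb of exon, Icam5 and Sirpa led the members in every group. Icam5 encodes telencephalin, a dendritic adhesion protein of forebrain neurons, and Sirpa the receptor for the surface protein CD47, present on neurons and also on myeloid cells. Icam5 reached 81.5 CPM per kb in Ascl4 CA1, 140.8 in EGFP CA1, 73.2 in Ascl4 GC and 106.3 in EGFP GC cells. Sirpa reached 79.2 CPM per kb in Ascl4 CA1, 68.3 in EGFP CA1, 90.7 in Ascl4 GC and 38.1 in EGFP GC cells. Both had a wide spread over cells, so these levels rest on some cells far above others. Ncam1 stood at 29.01 CPM per kb in Ascl4 CA1, 35.98 in EGFP CA1, 27.8 in Ascl4 GC and 37.7 in EGFP GC cells. Nrcam, known from nodes of Ranvier, stood between 22.5 and 28.6 CPM per kb over the 4 groups. Thy1 reached 35.3 CPM per kb in Ascl4 CA1 and 15.1 to 18.6 in the other groups. Ncam1 was found in most cells of every group, with 10 CPM or more in 38 of 45 Ascl4 CA1, 38 of 46 EGFP CA1, 36 of 51 Ascl4 GC and 39 of 47 EGFP GC cells. The 32 members together took 3024 CPM in Ascl4 CA1, 3379 CPM in EGFP CA1, 2322 CPM in Ascl4 GC and 2515 CPM in EGFP GC cells.

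**Figure D1:**
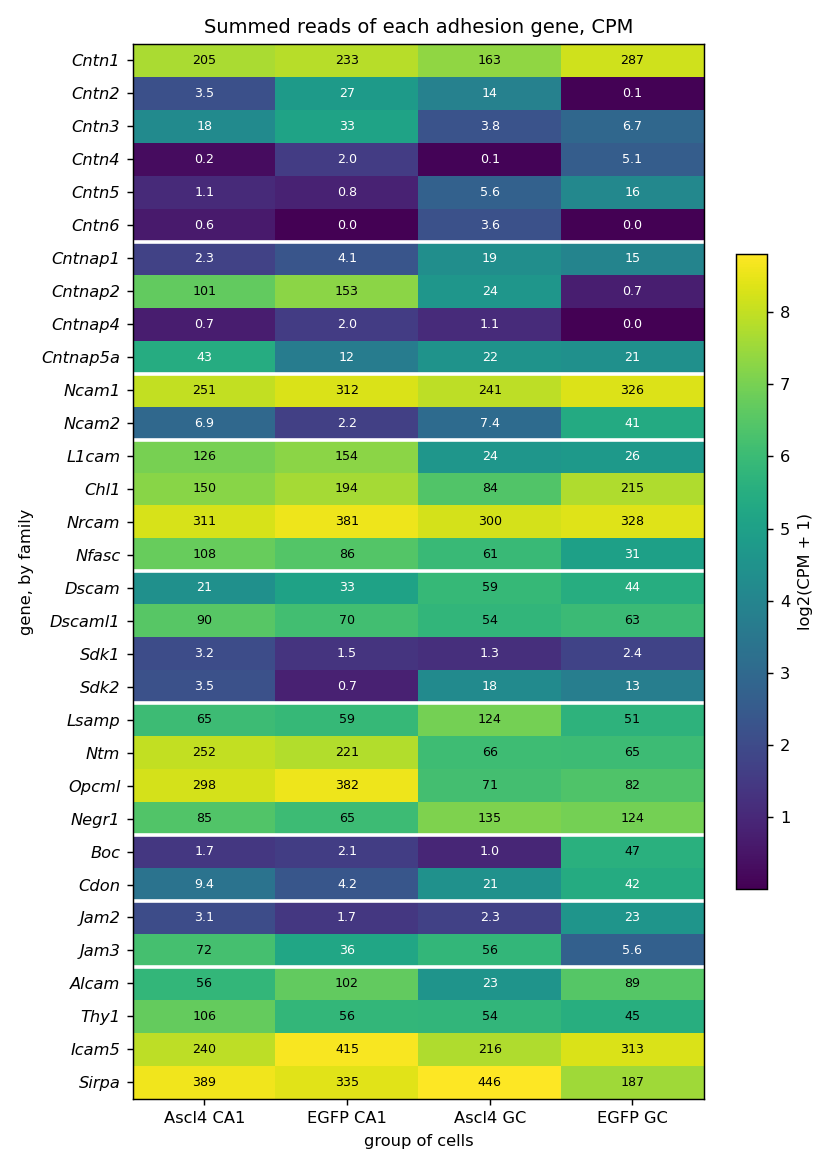
Summed level of each of the 32 members (rows, by family) in the 4 groups (columns), written in CPM and coloured by log2(CPM + 1). Cntnap2 stood at 101.4 and 153.1 CPM in the CA1 groups, against 23.7 and 0.68 CPM in the granule cell groups, while Ncam1 and Nrcam were within 1.5-fold in all 3 comparisons.

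Pooled over members and cells, many values were 0 and the others spread widely. In Ascl4 CA1 cells 42.4% of all values of members were 0 and 21.9% were at least 100 CPM, against 41.6% and 24.2% in EGFP CA1 cells. In Ascl4 GC cells 40.7% were 0 and 15.9% at least 100 CPM, against 43.5% and 16.8% in EGFP GC cells. Values between 1 and 10 CPM made up 10.8% in Ascl4 CA1, 9.04% in EGFP CA1, 13.1% in Ascl4 GC and 10.4% in EGFP GC cells. Those from 10 to 100 CPM made up 12.5%, 11.7%, 9.5% and 8.91% in the same order. The median cell had 11 members at 10 CPM or more in Ascl4 CA1, 12 in EGFP CA1, 8 in Ascl4 GC and 9 in EGFP GC cells.

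EGFP CA1 cells were set against EGFP GC cells to see how the adhesion genes of these cell types differ without Ascl4. Of the 32 members, 26 passed the filter on low values, 9 were higher in CA1 and 7 lower. Over all 9954 genes past the filter 30.5% were higher and 27.1% lower, so the counts among the members (9 and 7 of 26) stand near those of genes in general. The median log2 ratio was 0.21 over these 26 members, 0.08 over all 32, and 0.02 over all genes past the filter. The median over members past the filter was -0.51 in the earlier and 0.50 in the later run, so its direction turned. With the authors' normalized values the members split into 8 higher and 11 lower and all genes into 25.7% higher and 38.4% lower, and that scaling moved the median of all genes to -0.25.

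Cntnap2, also called Caspr2, gathers potassium channels along the axon together with contactin 2, and it had the largest ratio of the members. The gene spans chr6:45059357-47304213 on the plus strand of GRCm38, the build of all positions given here. In EGFP CA1 cells it ran between 0 and 527 CPM with a median cell of 115 CPM, against 0 to 18.6 CPM with a median of 0 in EGFP GC cells. Its summed level was 153.1 CPM (95% interval 151.5 to 154.6) in EGFP CA1 cells and 0.684 CPM (0.578 to 0.804) in EGFP GC cells, a log2 ratio of 6.52, with 6.75 in the earlier and 6.47 in the later run. At 10 CPM or more were 34 of 46 EGFP CA1 cells (73.9%, exact Clopper-Pearson 95% interval 58.9 to 85.7%) and 2 of 47 EGFP GC cells (4.26%, 0.52 to 14.5%). The low value thus held in nearly every EGFP GC cell, and most EGFP CA1 cells lay above the highest of them.

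Contactin 2, the partner of Caspr2 in that complex, followed the same order at a lower level. Cntn2 stood at 26.7 CPM in EGFP CA1 and 0.0512 CPM in EGFP GC cells (log2 ratio 4.72), with 10 of 46 EGFP CA1 cells and 0 of 47 EGFP GC cells at 10 CPM or more. Its highest cell held 488 CPM in EGFP CA1 and 0.554 CPM in EGFP GC cells, with a median of 0 in both. At a limit of 3 cells, a count of 0 of 47 allows a share of up to 6.38%. Of its EGFP CA1 reads 40.6% came from 1 cell, and the ratio without the highest cell was 3.73. Of the other contactins, Cntn3 was higher at 33.2 CPM in EGFP CA1 against 6.71 CPM in EGFP GC cells (2.15), and Cntn5 was lower at 0.829 CPM against 16.5 CPM (-3.26). Cntn1, the most abundant contactin and the axonal partner of Caspr at the paranode, was at 232.5 CPM in EGFP CA1 and 287 CPM in EGFP GC cells, within 1.5-fold. Cntn4 and Cntn6 did not pass the filter, at 1.99 CPM and 0.020 CPM in EGFP CA1 and 5.07 CPM and 0.0093 CPM in EGFP GC cells.

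Among the other contactin-associated genes, Cntnap1, the Caspr of the paranode, was at 4.09 CPM in EGFP CA1 and 14.8 CPM in EGFP GC cells (-1.63), and 53.2% of the EGFP GC reads came from 1 cell. Without the highest cell the ratio was -0.61. Cntnap5a was at 11.9 CPM in EGFP CA1 and 20.7 CPM in EGFP GC cells (-0.75), a difference that went to -0.40 without the highest cell and so under 1.5-fold. Cntnap4 did not pass the filter. Among the family's members past the filter, Cntnap2 alone was higher in CA1.

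**Figure D2:**
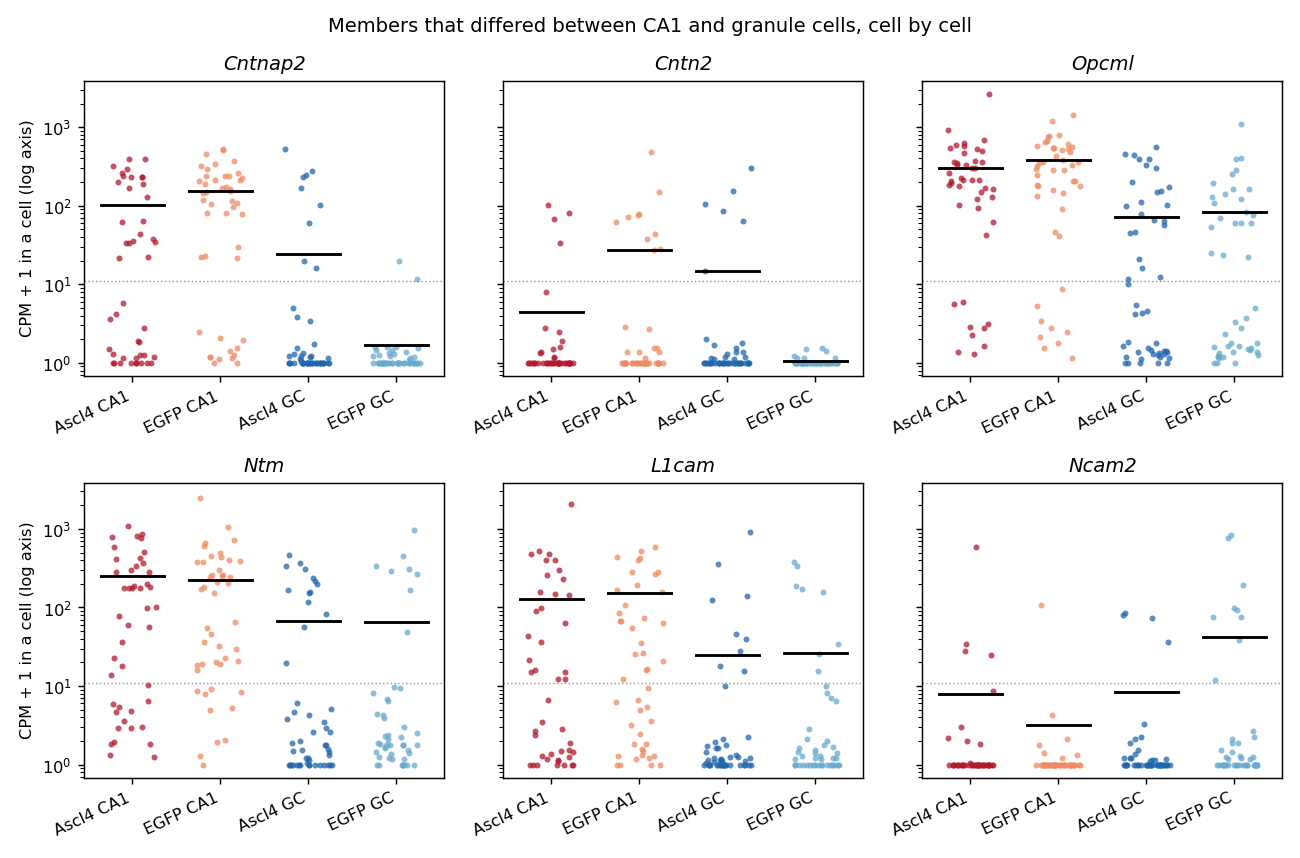
Level of 6 members in each cell (points, CPM + 1 on a log axis) with the summed level of the group (bar) and 10 CPM (dotted line). For Cntnap2, Opcml, Ntm and L1cam a larger share of points lies above the line in each CA1 group than in either granule cell group. Many granule cell points of Opcml still lie above it, 24 of 51 with Ascl4 and 22 of 47 with EGFP. Many CA1 points of L1cam lie below it, since only 23 of 45 with Ascl4 and 25 of 46 with EGFP are above. Cntn2 has no EGFP GC point above 10 CPM.

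IgLON proteins pair with one another in the membrane, and their make-up differed between the cell types. Opcml (chr9:27790775-28925410, plus strand) ran between 0.151 and 1448 CPM with a median cell of 289 CPM in EGFP CA1, against 0 to 1105 CPM and a median of 2.78 CPM in EGFP GC cells. Its summed level was 382 CPM in EGFP CA1 and 81.9 CPM in EGFP GC cells, a log2 ratio of 2.21, with 2.21 in the earlier and 2.22 in the later run. Opcml was at 10 CPM or more in 37 of 46 EGFP CA1 cells (80.4%) and 22 of 47 EGFP GC cells (46.8%), so the cells of the groups overlap. Ntm, which encodes neurotrimin and lies 69.3 kb beyond Opcml on the minus strand (chr9:28994750-29963141), went the same way. In EGFP CA1 cells Ntm ran between 0 and 2471 CPM with a median of 107.7 CPM, and in EGFP GC cells between 0 and 976 CPM with a median of 0.85 CPM. The sums were 220.96 CPM in EGFP CA1 and 65.3 CPM in EGFP GC cells (1.74), and 36 of 46 against 8 of 47 cells held 10 CPM or more.

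Negr1 went the other way, at 65.3 CPM in EGFP CA1 and 124.1 CPM in EGFP GC cells (-0.92), with 19 of 46 against 29 of 47 cells at 10 CPM or more. Lsamp, the limbic system-associated protein, stood at 59.1 CPM in EGFP CA1 and 50.6 CPM in EGFP GC cells, within 1.5-fold. Opcml and Ntm made up 52.5% and 30.4% of the reads of the 4 listed IgLON genes in EGFP CA1 cells, against 25.4% and 20.3% in EGFP GC cells. Per kb of exon Ntm stood above Opcml, with 43.2% against 41.6% in EGFP CA1 and 28.4% against 19.8% in EGFP GC cells. Negr1 made up 8.98% of the reads in EGFP CA1 and 38.5% in EGFP GC cells. The 4 genes together took 727 CPM in EGFP CA1 and 322 CPM in EGFP GC cells. Cells with Ascl4 kept this order between the cell types, with 298 CPM of Opcml and 252 CPM of Ntm in Ascl4 CA1, against 71.5 CPM and 66.4 CPM in Ascl4 GC cells.

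**Figure D3:**
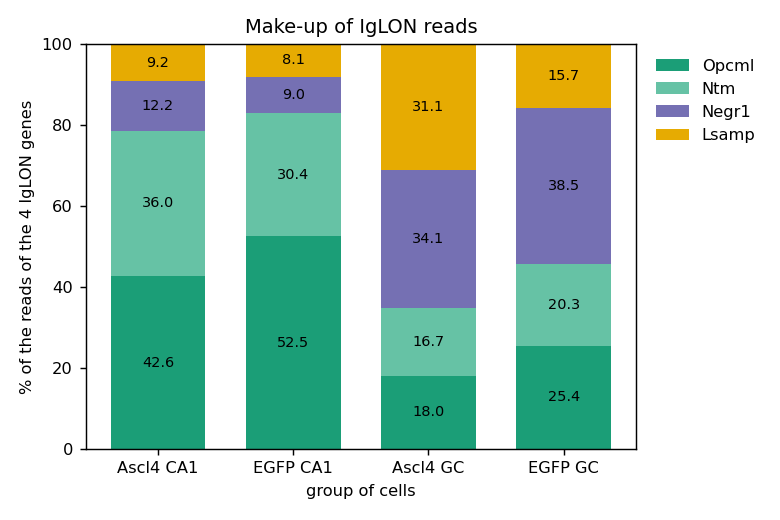
Share of the reads of the 4 IgLON genes (stacked bars, % of their summed reads) taken by Opcml, Ntm, Negr1 and Lsamp in each group. Opcml and Ntm make up most of the bar in both CA1 groups, Negr1 has its widest segments in the granule cell groups, and the Lsamp segment is wider in Ascl4 GC (31.1%) than in EGFP GC cells (15.7%).

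In the L1 family, L1cam, the founding ankyrin-binding member, was higher in CA1. L1cam (chrX:73853778-73896105, minus strand) ran between 0 and 590 CPM with a median of 15.2 CPM in EGFP CA1, against 0 to 383 CPM and a median of 0.277 CPM in EGFP GC cells. The summed level was 153.5 CPM in EGFP CA1 and 25.7 CPM in EGFP GC cells (2.53; 2.70 in the earlier and 2.52 in the later run), and 25 of 46 against 8 of 47 cells held 10 CPM or more. Its exons share 100 bases with Arhgap4 on the same strand. Nfasc, which anchors the axon initial segment, was at 85.98 CPM in EGFP CA1 and 31 CPM in EGFP GC cells (1.44), but the later run gave 0.48, under 1.5-fold. Chl1 was at 193.7 CPM in EGFP CA1 and 214.7 CPM in EGFP GC cells and Nrcam at 382 CPM and 328 CPM, both within 1.5-fold.

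Ncam2 was the member of the NCAM pair that differed. In EGFP CA1 cells Ncam2 (chr16:81200697-81626828, plus strand) ran between 0 and 106.5 CPM, against 0 to 834 CPM in EGFP GC cells, with a median of 0 in both. It summed to 2.18 CPM in EGFP CA1 and 41.1 CPM in EGFP GC cells (-3.73; -3.79 in the earlier and -3.74 in the later run), and 1 of 46 against 9 of 47 cells held 10 CPM or more. Ncam1, whose chains carry polysialic acid, was at 312 CPM in EGFP CA1 and 326 CPM in EGFP GC cells.

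Boc and Cdon, co-receptors of Sonic hedgehog, were lower in CA1, but few granule cells carried them. Boc stood at 2.06 CPM in EGFP CA1 and 47.1 CPM in EGFP GC cells (-3.98). It held 10 CPM or more in 2 of 46 against 5 of 47 cells, 68.4% of its EGFP GC reads came from 1 cell, and the later run gave -0.30. The highest cell held 27.1 CPM in EGFP CA1 and 1896 CPM in EGFP GC, with a median of 0 in both. Cdon stood at 4.16 CPM in EGFP CA1 and 42.3 CPM in EGFP GC cells (-3.07; -2.55 in the later run), with 57.2% of the EGFP GC reads in 1 cell. Jam3, an adhesion protein of cell junctions, was at 35.7 CPM in EGFP CA1 and 5.59 CPM in EGFP GC cells (2.48), with a highest cell of 1050.1 CPM and 172.5 CPM. Its direction turned in the earlier run (-0.69, against 5.11 in the later), and 93.6% of its EGFP GC reads came from 1 cell. Sirpa was at 335 CPM in EGFP CA1 and 186.9 CPM in EGFP GC cells (0.84, and 0.45 in the later run), and microglia also carry it. Of 13 microglia markers past the filter 12 were higher in EGFP CA1 cells and 0 lower, and the part of microglial RNA in the Sirpa ratio was not tested. Icam5, Thy1, Alcam, Dscam and Dscaml1 were within 1.5-fold, and Sdk1, Sdk2 and Jam2 did not pass the filter.

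The comparison of Ascl4 GC with EGFP GC cells asks what granule cells that carry Ascl4 express. Of 26 members past the filter, 6 were higher in Ascl4 GC cells and 7 lower, where 25.6% of all 9783 genes past the filter were higher and 30.7% lower. The counts are again near those of genes in general. The median log2 ratio was -0.03 over the 26 members, -0.11 over all 32, and -0.08 over all genes past the filter. These ratios share the EGFP GC cells with those between EGFP CA1 and EGFP GC cells. Beside them, 6 of 7 oligodendrocyte markers past the filter were higher in the summed reads of Ascl4 GC cells and 0 lower (while fewer single cells held them, 19 of 51 Ascl4 GC against 28 of 47 EGFP GC cells reaching a marker sum of 100 CPM), 2 of 9 astrocyte markers were higher and 5 lower, and 0 of 10 granule cell markers were higher and 6 lower. Their part in the ratios of members was not tested, except where cells were left out below.

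Cntnap2 and Cntn2, nearly absent from EGFP GC cells, were found in some Ascl4 GC cells. Cntnap2 ran between 0 and 533 CPM in Ascl4 GC cells with a median of 0, and summed to 23.7 CPM (95% interval 23.1 to 24.2), against 0.684 CPM in EGFP GC cells. The log2 ratio was 3.87, with 4.06 in the earlier and 4.08 in the later run. At 10 CPM or more were 9 of 51 Ascl4 GC cells (17.6%, interval 8.4 to 30.9%) and 2 of 47 EGFP GC cells, so most Ascl4 GC cells were below that level too. Cntn2 was at 13.8 CPM in Ascl4 GC and 0.0512 CPM in EGFP GC cells (3.82), in 6 of 51 against 0 of 47 cells, with a highest cell of 306 CPM against 0.554 CPM.

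Some of these cells stood apart in other ways. Of the 9 Ascl4 GC cells with Cntnap2, 3 were among the 4 Ascl4 GC cells with more than 12000 genes, and 1 had CA1 markers above granule markers. Of the 6 cells with Cntn2, 4 had more than 12000 genes, 2 went against their label, and all 6 had an astrocyte marker sum of at least 100 CPM. For microglia markers 5 of these 6 cells reached such a sum, and for oligodendrocyte markers 4. Of the 9 cells with Cntnap2, 6 reached it for astrocyte, 7 for microglia and 5 for oligodendrocyte markers. Of all 51 Ascl4 GC cells, 30 reached it for astrocyte, 27 for microglia and 19 for oligodendrocyte markers. Leaving out the cells of more than 12000 genes gave log2 ratios of 3.89 for Cntnap2 and 2.54 for Cntn2. Leaving out the cells that go against their label gave 3.90 and 3.07. The Cntnap2 ratio was thus as large without either set. Cntn2 fell below the 10 CPM of the filter and was no longer counted, at 5.12 CPM and 7.84 CPM in the Ascl4 GC cells left. It also stayed below 10 CPM without the highest cell (8.50 CPM) and in the earlier run (8.57 CPM).

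Chl1, the close homologue of L1 with a part in dendrite and axon placement, was lower both in its summed level and in the share of cells that held it. Chl1 (chr6:103510586-103750211, plus strand) ran between 0 and 1227 CPM with a median of 1.65 CPM in Ascl4 GC, against 0 to 1468 CPM and a median of 72.1 CPM in EGFP GC cells. Summed levels were 83.7 CPM (82.7 to 84.8) in Ascl4 GC and 214.7 CPM (212.7 to 216.7) in EGFP GC cells, a log2 ratio of -1.35. The earlier run gave -1.51 and the later -1.86. Chl1 held 10 CPM or more in 13 of 51 Ascl4 GC cells (25.5%, interval 14.3 to 39.6%) and 27 of 47 EGFP GC cells (57.4%, 42.2 to 71.7%). In the same family Nfasc was at 60.97 CPM in Ascl4 GC and 31 CPM in EGFP GC cells (0.95), but under 1.5-fold without the highest cell (0.48) and with the authors' normalized values (0.01). L1cam was at 24.02 CPM and 25.7 CPM and Nrcam at 300.2 CPM and 328 CPM in Ascl4 GC and EGFP GC cells, both within 1.5-fold.

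Cntn1 was lower as well, at 163.05 CPM in Ascl4 GC and 287 CPM in EGFP GC cells (-0.81; -0.81 in the earlier and -0.84 in the later run). Its median cell held 14.7 CPM in Ascl4 GC and 79.3 CPM in EGFP GC cells, and 27 of 51 against 32 of 47 cells were at 10 CPM or more. Cntn5 was at 5.64 CPM in Ascl4 GC and 16.5 CPM in EGFP GC cells (-1.40), a difference that rested on 1 EGFP GC cell with 57.8% of the reads. Without the highest cell the ratio was 0.01. Ncam2 was at 7.39 CPM in Ascl4 GC and 41.1 CPM in EGFP GC cells (-2.33), in 4 of 51 against 9 of 47 cells, with -4.21 in the earlier run and -0.34 in the later.

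Alcam, an axonal adhesion protein also known as CD166, was at 22.5 CPM in Ascl4 GC and 89.5 CPM in EGFP GC cells (-1.94; -3.24 and -0.87 in the earlier and later run). The share of cells at 10 CPM or more was close, with 11 of 51 Ascl4 GC cells and 12 of 47 EGFP GC cells, so the groups differed more in level than in the share of cells. Boc was at 0.962 CPM in Ascl4 GC and 47.1 CPM in EGFP GC cells (-4.62, and -0.82 in the later run), with the weight of 1 EGFP GC cell given above. Cdon was at 21 CPM in Ascl4 GC and 42.3 CPM in EGFP GC cells (-0.98), and the ratio without the highest cell was -0.11.

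Of the IgLON genes, Lsamp was the member that differed. Lsamp (chr16:39984361-42181679, plus strand) ran between 0 and 2207 CPM with a median of 18.8 CPM in Ascl4 GC, against 0 to 353 CPM and a median of 1.73 CPM in EGFP GC cells. Summed levels were 123.6 CPM (122.3 to 124.9) in Ascl4 GC and 50.6 CPM (49.7 to 51.6) in EGFP GC cells, a log2 ratio of 1.27, with 1.41 in the earlier and 0.71 in the later run and 2.57 with the authors' normalized values. It held 10 CPM or more in 27 of 51 Ascl4 GC cells (52.9%) and 17 of 47 EGFP GC cells (36.2%). Lsamp took 31.1% of the IgLON reads in Ascl4 GC cells, against 15.7% in EGFP GC cells. Opcml, Ntm and Negr1 were within 1.5-fold, at log2 ratios of -0.19, 0.02 and 0.13.

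Jam3 was at 55.6 CPM in Ascl4 GC and 5.59 CPM in EGFP GC cells (3.10; 1.69 and 5.33 in the earlier and later run), in 11 of 51 against 1 of 47 cells. Of these 11 cells 3 had more than 12000 genes and 3 went against their label, and leaving each set out gave 3.19 and 3.14. A marker sum of at least 100 CPM was reached in 9 of the 11 for microglia, 8 for astrocytes and 7 for oligodendrocytes. In all 51 Ascl4 GC cells it was reached in 27, 30 and 19. The part of glial RNA in the Jam3 ratio was not tested. Sirpa ran between 0.479 and 3261 CPM with a median of 129.4 CPM in Ascl4 GC, against 0 to 1368 CPM and a median of 3.17 CPM in EGFP GC cells. Its sums were 446 CPM in Ascl4 GC and 186.9 CPM in EGFP GC cells (1.25), with 39.3% of the Ascl4 GC reads in 1 cell. Without the deepest 10% of cells the ratio was 0.64, still past 1.5-fold, and 32 of 51 against 17 of 47 cells held 10 CPM or more. Microglia also carry Sirpa, and 6 of the 13 microglia markers past the filter were higher in Ascl4 GC cells and 1 lower. Across cells the rank correlation of Sirpa with the microglia marker sum was -0.02 in Ascl4 GC (n = 51) and 0.24 in EGFP GC cells (n = 47), values that share each cell's total. The members within 1.5-fold were Cntnap1, Cntnap5a, Ncam1, L1cam, Nrcam, Dscam, Dscaml1, Sdk2, Ntm, Opcml, Negr1, Thy1 and Icam5, and Cntn3, Cntn4, Cntn6, Cntnap4, Sdk1 and Jam2 did not pass the filter.

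**Figure D4:**
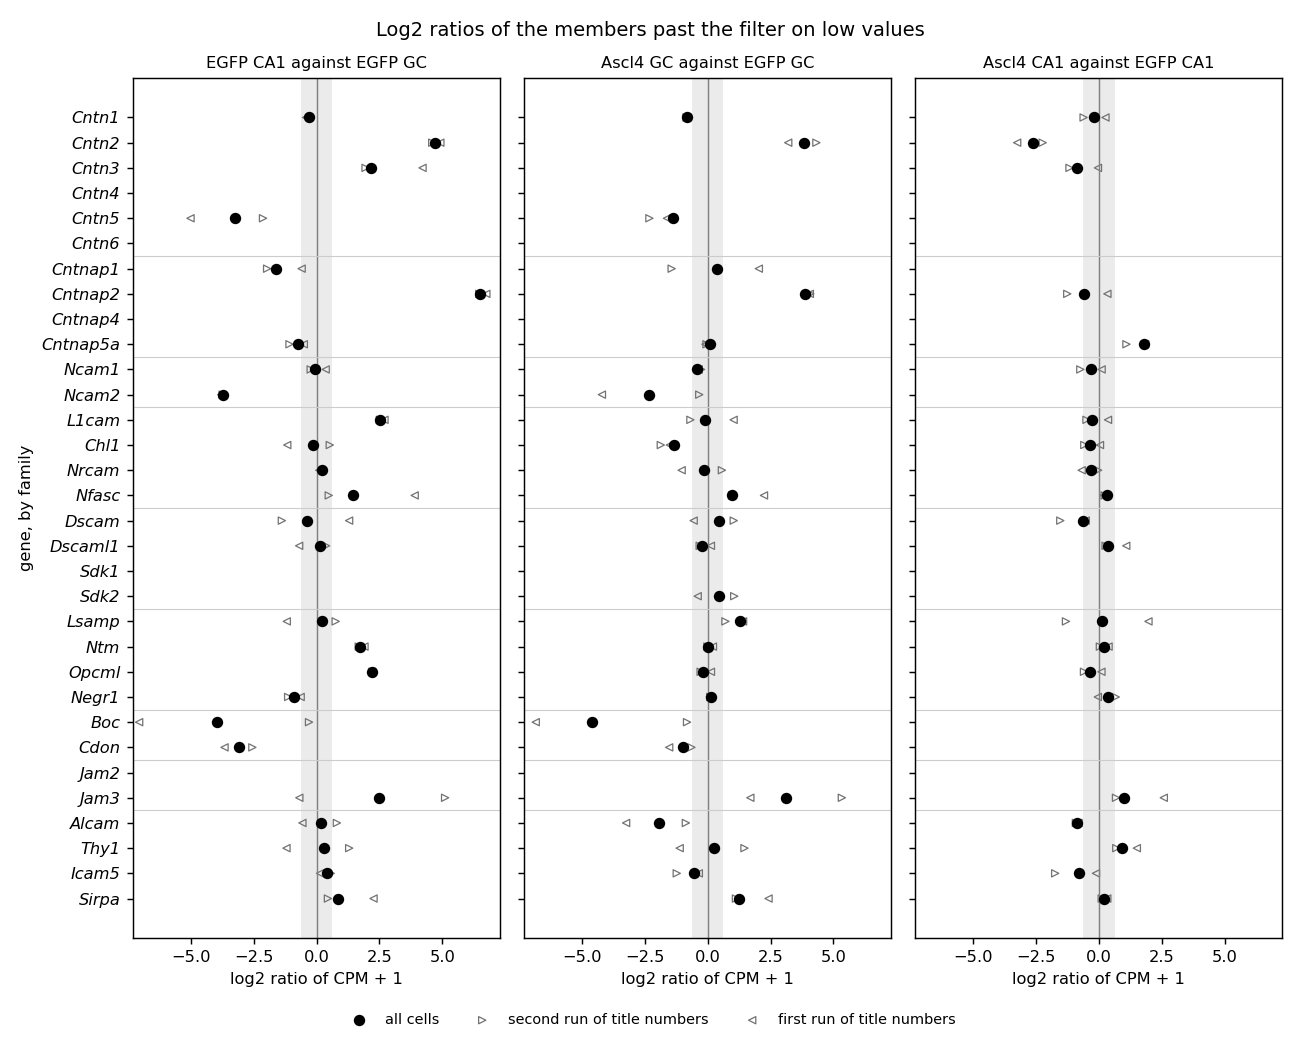
Log2 ratio of CPM + 1 for each member past the filter (rows) in the 3 comparisons (panels), over all cells (black) and in the earlier and later run of title numbers (open triangles), with the range within 1.5-fold in grey. Cntnap2, Opcml, Ntm, L1cam and Ncam2 have runs close together in the CA1 panel, while Jam3 (-0.69 and 5.11) and Boc (-7.05 and -0.30) have runs far apart.

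Ascl4 CA1 cells were compared with EGFP CA1 cells in the same way. Of 21 members past the filter, 3 were higher in Ascl4 CA1 cells and 6 lower, where 2351 of all 9781 genes past the filter (24%) were higher and 24.3% lower. The median log2 ratio was -0.28 over the 21 members, -0.02 over all 32, and -0.02 over all genes past the filter. The median over members past the filter was 0.30 in the earlier run, with 7 higher and 3 lower, and -0.58 in the later, with 4 higher and 10 lower. Neither the median nor the balance of calls thus kept its direction between runs. Whether these differences are smaller than those in granule cells was not tested.

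Among the 21 members past the filter, Icam5 had the largest difference in the share of cells at 10 CPM or more. Telencephalin, its product, lines dendrites and holds back the maturation of spines. Icam5 (chr9:21032073-21039036, plus strand) ran between 0 and 997 CPM with a median of 2.15 CPM in Ascl4 CA1, against 0 to 1526 CPM and a median of 394 CPM in EGFP CA1 cells. At 10 CPM or more were 17 of 45 Ascl4 CA1 cells (37.8%, exact interval 23.8 to 53.5%) and 33 of 46 EGFP CA1 cells (71.7%, 56.5 to 84.01%). The summed levels understate this, at 240.1 CPM in Ascl4 CA1 and 415 CPM in EGFP CA1 cells (-0.79), and 49.3% of the Ascl4 CA1 reads came from 1 cell of the earlier run. The earlier run gave -0.11 and the later -1.73, the mean over cells -1.74, the authors' normalized values -1.80, and the cells without the deepest 10% -1.92. In granule cells Icam5 was within 1.5-fold over all cells (-0.54), with -0.35 in the earlier and -1.23 in the later run, which is past 1.5-fold, and with 21 of 51 Ascl4 GC cells and 29 of 47 EGFP GC cells at 10 CPM or more. Whether the ratios in CA1 and granule cells differ was not tested.

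Thy1, a small lipid-anchored protein of projection neurons, was higher, at 105.7 CPM in Ascl4 CA1 and 55.7 CPM in EGFP CA1 cells (0.91; 1.51 in the earlier and 0.69 in the later run). Its median cell held 71.01 CPM in Ascl4 CA1 and 22.2 CPM in EGFP CA1 cells, and 34 of 45 against 27 of 46 cells were at 10 CPM or more. With the highest cell left out, Thy1 stayed just past 1.5-fold (0.59). In the 2 stretches of the later run Thy1 was at 166.3 CPM and 60.9 CPM in Ascl4 CA1 cells, against 67.2 CPM in EGFP CA1 cells, so only the first of them was higher. Jam3 was at 72.2 CPM in Ascl4 CA1 and 35.7 CPM in EGFP CA1 cells (1.00), in 19 of 45 against 11 of 46 cells, but the mean over cells gave 0.30. In the same stretches Jam3 was at 46.01 CPM and 111.4 CPM in Ascl4 CA1, against 50.2 CPM in EGFP CA1 cells, so only the second was higher. Cntnap5a was at 43.3 CPM in Ascl4 CA1 and 11.9 CPM in EGFP CA1 cells (1.78), with 57.6% of the Ascl4 CA1 reads in 1 cell and 0.86 without the highest.

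Cntn2 was lower at 3.50 CPM in Ascl4 CA1 against 26.7 CPM in EGFP CA1 cells (-2.62; -3.25 and -2.23 in the earlier and later run), in 4 of 45 against 10 of 46 cells, and the ratio without the highest cell was -1.35. Cntnap2 was at 101.4 CPM in Ascl4 CA1 and 153.1 CPM in EGFP CA1 cells (-0.59), just past 1.5-fold, in 23 of 45 against 34 of 46 cells. Its direction turned in the earlier run (0.34, against -1.25 in the later). Over all cells, Cntn2 and Cntnap2 were thus both lower in Ascl4 CA1 and higher in Ascl4 GC cells, each group against its own EGFP group. Cntn3 was at 17.7 CPM in Ascl4 CA1 and 33.2 CPM in EGFP CA1 cells (-0.87, and -0.04 in the earlier run).

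Alcam was at 55.8 CPM in Ascl4 CA1 and 102.5 CPM in EGFP CA1 cells (-0.87; -0.81 and -0.91 in the earlier and later run), with a median cell of 1.82 CPM against 64.2 CPM. It held 10 CPM or more in 16 of 45 Ascl4 CA1 cells and 26 of 46 EGFP CA1 cells. Alcam was the only member counted as lower in both Ascl4 groups, as Jam3 was the only member counted as higher in both. The authors' normalized values took its CA1 ratio to -0.23, within 1.5-fold. Dscam, a receptor of neurite self-avoidance, was at 20.7 CPM in Ascl4 CA1 and 32.9 CPM in EGFP CA1 cells (-0.64, and -0.52 in the earlier run). Beside these, 9 of 14 microglia markers were higher in Ascl4 CA1 cells and 1 lower, and 0 of 6 astrocyte markers past the filter were higher and 4 lower, and their part in the ratios of members was not tested. All 4 IgLON and all 4 L1 family genes were within 1.5-fold over all cells, between -0.36 (Chl1) and 0.38 (Negr1), as were Cntn1, Ncam1, Dscaml1 and Sirpa. Lsamp went both ways by run, with 1.97 in the earlier and -1.31 in the later. Chl1 held 10 CPM or more in 23 of 45 Ascl4 CA1 and 33 of 46 EGFP CA1 cells, and its ratio without the highest cell was -1.13. Cntn4, Cntn5, Cntn6, Cntnap1, Cntnap4, Ncam2, Sdk1, Sdk2, Boc, Cdon and Jam2 did not pass the filter.

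**Figure D5:**
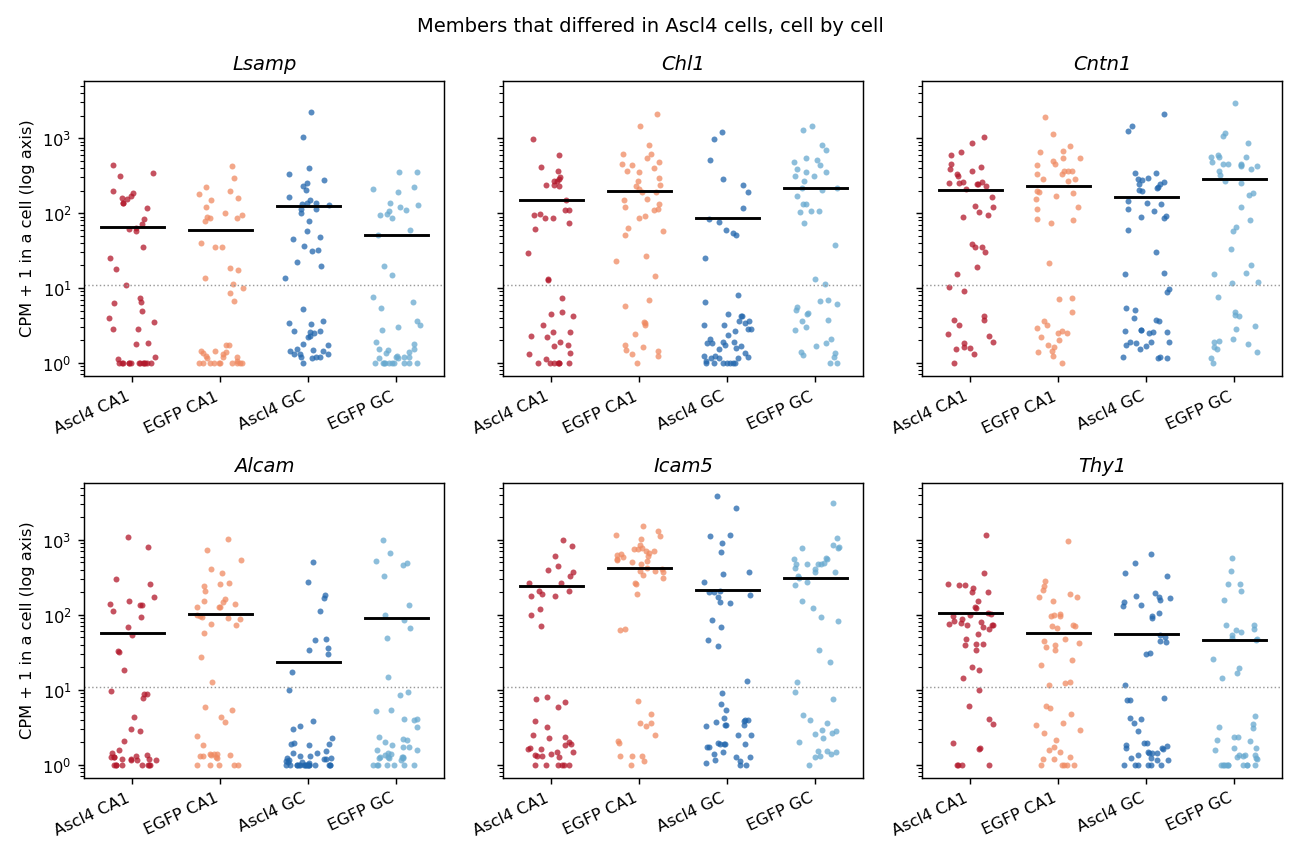
Level of 6 members in each cell (points, CPM + 1 on a log axis) with the summed level of the group (bar) and 10 CPM (dotted line). Icam5 has 17 of 45 Ascl4 CA1 points above the line against 33 of 46 in EGFP CA1, and Chl1 has 13 of 51 Ascl4 GC points against 27 of 47 in EGFP GC.

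Known partners of the members were read from 6 lists with 89 genes in all, and counts cover those past the filter. The lists are short, and no count was tested against genes in general. Over all genes past the filter in EGFP CA1 against EGFP GC cells, 30.5% were higher and 27.1% lower. In EGFP CA1 against EGFP GC cells, 6 of 15 measured partners of contactins and Caspr proteins were higher and 4 lower. Ptprz1, a receptor phosphatase that binds contactin 1, was at 4.75 CPM in EGFP CA1 and 90.9 CPM in EGFP GC cells (-4.00). In the list of polysialic acid and NCAM signalling 3 of 7 were higher and 3 lower, and Gap43, a growth cone protein downstream of NCAM, was at 473 CPM in EGFP CA1 and 17.1 CPM in EGFP GC cells (4.71). Of 18 other immunoglobulin adhesion genes 6 were higher and 4 lower, with Igsf3 at 0.0200 CPM in EGFP CA1 and 67.1 CPM in EGFP GC cells (-6.06). Of 8 ankyrin and spectrin anchors 3 were higher and 0 lower, with Msn, a linker of membrane and actin, at 64.1 CPM in EGFP CA1 and 16.7 CPM in EGFP GC cells (1.88, but -0.68 in the later run). Of 3 Hedgehog genes 2 were higher and 1 lower, with Gas1, a co-receptor beside Boc and Cdon, at 30.7 CPM in EGFP CA1 and 4.98 CPM in EGFP GC cells (2.41). Of 7 ligands and sheddases of Sirpa, Icam5, Thy1 and Alcam 4 were higher and 1 lower, with Adam17, a sheddase, at 15.99 CPM in EGFP CA1 and 4.02 CPM in EGFP GC cells (1.76).

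In Ascl4 GC against EGFP GC cells, 25.6% of all genes past the filter were higher and 30.7% lower. There 5 of 7 genes of polysialic acid and NCAM signalling were higher and 1 lower. The lower gene was Gfra1, a GDNF receptor that also pairs with NCAM, at 34.02 CPM in Ascl4 GC and 147.99 CPM in EGFP GC cells (-2.09). Of 8 anchors 4 were higher and 0 lower, with Dcx, a microtubule protein of young neurons, at 27.8 CPM in Ascl4 GC and 13.01 CPM in EGFP GC cells (1.04, and 0.24 in the later run). Of 16 contactin and Caspr partners 5 were higher and 4 lower, with Dlg2, a synaptic scaffold, at 57.6 CPM in Ascl4 GC and 14.2 CPM in EGFP GC cells (1.95). Of 14 other adhesion genes 2 were higher and 4 lower, with Mdga2, a negative regulator of neuroligin binding, at 6.52 CPM and 35.6 CPM (-2.28) in Ascl4 GC and EGFP GC cells. Of 7 ligands and sheddases 3 were higher and 0 lower, and of 3 Hedgehog genes 1 was higher and 1 lower. Adam17 was at 39.9 CPM in Ascl4 GC and 4.02 CPM in EGFP GC cells (3.03, but -2.83 in the earlier run). In Ascl4 CA1 against EGFP CA1 cells, 24% of all genes past the filter were higher and 24.3% lower. Of the contactin and Caspr partners 4 of 15 were higher and 1 lower. Of other adhesion genes 5 of 16 were higher and 3 lower, and all 5 genes of NCAM signalling past the filter were within 1.5-fold. Of 8 anchors 1 was higher and 1 lower, and of 8 ligands and sheddases 2 were higher and 2 lower. The genes of largest ratio in these lists turned direction in 1 of the runs. Ptprz1 was at 18.4 CPM in Ascl4 CA1 and 4.75 CPM in EGFP CA1 cells (1.76, but -0.60 in the later run), and Msn at 23.9 CPM and 64.1 CPM (-1.39, but 1.43 in the later run). Itgb2, an integrin chain of leukocytes, was at 28.2 CPM in Ascl4 CA1 and 8.74 CPM in EGFP CA1 cells (1.58, but -3.91 in the earlier run), and Dcc, a netrin receptor, at 3.16 CPM and 19.4 CPM (-2.30, but 0.42 in the earlier run). Of 4 Hedgehog genes 2 were higher and 2 lower, with Sufu, an inhibitor of the pathway, at 2.16 CPM in Ascl4 CA1 and 44.9 CPM in EGFP CA1 cells (-3.86; -3.82 and -4.44 in the earlier and later run).

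Within a group, members varied across cells with little in common. Spearman's rho between pairs of members had a median of 0.114 in Ascl4 CA1 (n = 45), 0.109 in EGFP CA1 (n = 46), 0.069 in Ascl4 GC (n = 51) and 0.065 in EGFP GC cells (n = 47). The closest pairs were Chl1 with Alcam (0.562) and L1cam with Dscaml1 (0.558) in EGFP CA1 cells, and Nrcam with Opcml (0.509) in EGFP GC cells. Values of 1 cell share its total and its number of detected genes, and Dscaml1 went with the number of genes at 0.742 in EGFP CA1 cells. Ntm went against the microglia marker sum at -0.586 in Ascl4 CA1 cells, also picked from many values of members and marker sums and not tested.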

How the data were processed

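Single hippocampal neurons were drawn into patch pipettes and their RNA sequenced. Reads were aligned with STAR to GRCm38.p4 and counted per gene with HTSeq, per the submitters' processing notes. Neither versions nor strandedness are given in the sources used here. The authors deposited raw counts per gene before and after cell filtering, and normalized values of unknown method, a signal scaled by 1 factor per cell. The deposited counts hold 51 Ascl4 GC, 47 EGFP GC, 45 Ascl4 CA1 and 46 EGFP CA1 cells, where the series text states 52, 53, 51 and 48 that passed. No edgeR or DESeq2 test was run, since the labels name no animals and each group counts as 1 sample.

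Counts were summed per group and scaled to CPM (Python 3.11.15, pandas 2.3.3), 92 spike-in rows with 4 reads left out. Log2 ratios used a pseudocount of 1 CPM, and a member counted as different past 1.5-fold, when 25% of cells had a read and the level reached 10 CPM in either group. Intervals are exact Poisson and Clopper-Pearson 95% intervals. They cover counting error only, of reads without molecular identifiers and of the cells drawn, and not the spread between mice. The ratio calculation was run on simulated group sums with known changes and no spread between cells. That run checks the arithmetic only, not the filter on cells or the calls in these data. Members past the filter and 1.5-fold, with the same sign without the highest cell, were named with their values, as were Cntn5 and the 6 members highest per kb of exon. For partner lists the gene of largest ratio was named. Gene positions are GENCODE M21 on GRCm38, promoters RefSeq on GRCm38.p6. Exons of Cntnap1 and Ncam1 overlap an antisense gene (Plekhh3 by 233 bases, Gm11149 by 417 bases). Alternatives were means over cells, edgeR 4.0.16 and DESeq2 1.42.0 scaling factors, the authors' normalized values, other pseudocounts and filters, all 228 cells, single runs, and cells left out. The members, lists and rules were chosen with earlier results of these data known, and leaving out cells whose markers go against their label was added after the data were seen.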

Additional observations from a re-analysis of the deposited data

Results flagged for a closer look

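For 2 members the ratio of Ascl4 over EGFP cells was past 1.5-fold in both cell types, in opposite directions. Cntn2 had a log2 ratio of -2.62 in CA1 and 3.82 in granule cells, a difference (CA1 minus granule cells) of -6.44. Cntnap2 had -0.59 in CA1 and 3.87 in granule cells, a difference of -4.46. Both genes were nearly absent from EGFP GC cells, so the size of their granule cell ratios depends on the 1 CPM added. Over the alternatives these ratios ran from 1.24 to 6.52 for Cntn2 and from 1.66 to 4.92 for Cntnap2. As given above, Cntn2 fell below the filter in Ascl4 GC when small sets of cells were left out and in the earlier run. Leaving out the highest cell turned no direction. For Cntnap2 the CA1 ratio was 0.34 in the earlier run. The difference was not tested, since each group counts as 1 sample.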

How the results depend on the processing

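Over 15 alternatives, the members counted as different kept their direction in all but 1 value in each comparison. By ratio alone, past 1.5-fold in every alternative were 1 of 9 members in Ascl4 CA1, 9 of 13 in Ascl4 GC and 11 of 16 in EGFP CA1 against EGFP GC. Directions turned for Cntn5 in Ascl4 GC without the highest cell (0.0099). In the earlier run they turned for Jam3 in EGFP CA1 against EGFP GC (-0.69), Cntnap2 in Ascl4 CA1 (0.34), Adam17 in Ascl4 GC (-2.83), and Itgb2 (-3.91) and Dcc (0.42) in Ascl4 CA1. In the later run they turned for Msn (1.43) and Ptprz1 (-0.60) in Ascl4 CA1 and for Msn in EGFP CA1 against EGFP GC (-0.68). The cause was not tested. Of 90 counts of members, 81 stayed within 1.5 times. The stricter filter gave 3 lower in Ascl4 GC, 3 lower in Ascl4 CA1 and 1 lower in EGFP CA1 against EGFP GC, where fewer genes were left. The count of higher members in Ascl4 CA1 was 5 without the highest cell, 9 with no filter and 7 in the earlier run, and that of lower members 3 in the earlier and 10 in the later run. The authors' normalized values gave 11 lower in EGFP CA1 against EGFP GC. In that comparison the median log2 ratio of all genes was -0.09 with TMM, -0.10 with median-of-ratios and -0.25 with the authors' scaling. No paired analysis was possible because the labels name no animal. Cntn4, Cntn6, Cntnap4 and Sdk1 stayed under 10 CPM in all groups and had a read in at most 13 cells of a group, so their ratios rest on few cells.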

Other observations

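Cells differed in how many of the 4 IgLON genes they held. At 10 CPM or more, 24 of 45 Ascl4 CA1 cells and 26 of 46 EGFP CA1 cells held at least 3 of them, against 15 of 51 Ascl4 GC cells and 14 of 47 EGFP GC cells. None of the 4 was found at that level in 4 Ascl4 CA1, 3 EGFP CA1, 7 Ascl4 GC and 9 EGFP GC cells.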
